A study of Mus musculus with 16 samples.

Results

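The subject is the core machinery of macroautophagy and its cargo receptors, 38 genes chosen by name, all of which were found among the 31053 genes measured. mRNA was sequenced from C2C12, a mouse myoblast line that fuses into multinucleated myotubes in culture, as myoblasts and as myotubes of a WT and a Fam134b KO line, with 4 samples in each of the 4 groups. Fam134b is a receptor that directs endoplasmic reticulum into autophagosomes, and the comparisons address how its loss and myotube formation bear on the transcriptome. Per the study's methods, the KO line was made with a lentiviral CRISPR-Cas9 vector carrying a pair of guide RNAs, followed by antibiotic selection; whether it is a single clone is not stated in the sources used here, so genotype cannot be told apart from other differences between the lines. The labels give DMEM with fetal bovine serum for cells and myotubes alike and no day, and the genotype comes from the sample titles. The samples are numbered biological replicates with no culture named, so p-values measure the spread between these samples, which may be partly technical.

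In autophagy, the ULK1 kinase complex and a lipid kinase complex around Beclin 1 start a cup-shaped membrane, the phagophore. ATG9 vesicles and ATG2 lipid transfer proteins feed its growth, while a ubiquitin-like conjugation system attaches proteins of the ATG8 family (LC3 and GABARAP) to its lipids. Cargo receptors such as p62 then tie ubiquitinated cargo to the ATG8 proteins, and the closed autophagosome fuses with the lysosome. Skeletal muscle depends on this pathway to remove damaged proteins and organelles, and much of its regulation acts on the proteins and not on mRNA.

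Values are normalized counts, read back from deposited log2 values, and replicates 1 to 4 of a group are listed in that order. Differences are differences between group means of log2(normalized count + 1) ± SE from limma, and calls were made where the p adjusted by Benjamini-Hochberg over all 10767 genes tested was under 0.05. Folds are taken from these differences and understate the change of genes with low counts. All 38 members were among the genes tested, which had to reach a normalized count of 10 in 4 or more libraries. Reads on genes numbered 1790524 and 1484750 in replicates 2 and 4 of Fam134b KO myotubes, called the shallow libraries here, and 2686680 to 3287461 in the others. Fam134b itself was at 150 to 251 in WT myoblasts and 146 to 287 in WT myotubes, and at 23.4 to 35.6 and 28.0 to 56.9 in the KO groups. The sum of the 8 myotube markers was 745 to 1264 in WT myoblasts and 9.18 to 16.6 in KO myoblasts, rising to 16263 to 23077 (WT) and 8629 to 11702 (KO) in the libraries labelled myotubes. Fam134b KO myoblasts stood apart from their label in part: Myod1, a defining myoblast factor, was at 5.81 to 15.7 against 236 to 375 in WT myoblasts. Pax7 was at 4.95 or less in every library. Myog, one of the myotube markers, was at 0 in all 4 KO myoblast libraries and at 92.1 to 149 in WT myoblasts. Of the myoblast markers, 3 of 4 tested (Myod1, Des and Cdh15) were called lower in KO at each stage. The same 3 were called higher in myotubes than in myoblasts of both genotypes, so they did not mark myoblasts alone. The fourth, Myf5, had differences of 0.68 ± 0.27 (adjusted p = 0.0955) between myoblasts, where all KO libraries lay above WT, and -0.21 ± 0.27 (adjusted p = 0.615) between myotubes. Markers of adipocytes, endothelium and bone summed to at most 1.73 in any library, those of macrophages to at most 11.2 with Ptprc and Adgre1 at 0 throughout. Fibroblast markers summed to 2258 to 4590 in WT and 3022 to 11544 in KO myoblasts, nearly all of it Col1a1. Pdgfra was at 2.67 to 14.4 and Thy1 at 2.7 or less over the libraries. Of 2 tested, 1 (Col1a1) was called higher in KO myoblasts, and no difference between myotubes was called. In bulk RNA, fewer cells of a type and less RNA per cell cannot be told apart, and the part of the marker differences in the results below was not tested. Exons of 12 members (Rb1cc1, Becn1, Atg14, Uvrag, Atg9a, Atg2b, Atg4d, Map1lc3b, Gabarapl1, Sqstm1, Optn and Tax1bp1) overlap a gene on the opposite strand, whose reads cannot be told apart where counting ignores strand, and the sources used here do not state whether it did. For each member, the 31-base stretches in the last 500 bases of all its annotated transcripts were pooled. Of these stretches, 53.3% in Atg4a, 37.3% in Atg9a, 15.8% in Map1lc3b, 12.6% in Rb1cc1 and 11.6% in Gabarapl2 also occur in another gene. The counts of these genes are therefore uncertain.

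Most members were not called in any single comparison, and the share called was near that of all genes or lower. It was above that of all genes under some alternatives. With no filter, the same 12 of 38 were called in Fam134b KO differentiation beside 20.3% of all genes. The genes tested then numbered 17641 and included those with few reads, so that share has another base. Between WT myotubes and WT myoblasts, 6 of 38 members were called, 4 higher and 2 lower in myotubes, that is 15.8% beside 23% of all genes tested (13.8% called higher and 9.16% lower). Between Fam134b KO myotubes and KO myoblasts, 12 were called, 7 higher and 5 lower, 31.6% beside 33.4% of all genes (17.3% higher, 16.1% lower). Fam134b KO differed from WT myoblasts in 5 members, 3 higher and 2 lower, 13.2% beside 15.8% (7.26% higher, 8.5% lower). In myotubes, 8 members were called between genotypes, 6 higher and 2 lower in Fam134b KO, 21.1% beside 23.4% (9.74% higher, 13.7% lower). The interaction, which tests whether the change on differentiation differed between genotypes, called 1 member, Uvrag, in the higher direction (2.63% beside 3.45%, of which 1.97% higher and 1.48% lower). The median difference over the members was 0.01 in WT and 0.16 in KO differentiation, 0.10 between myoblasts and 0.17 between myotubes, beside -0.01, -0.02, -0.01 and -0.07 over all genes tested. In total 22 members were called in at least 1 of the 4 comparisons of 2 groups, 9 of them in more than 1. The matching shares of all genes were not computed, so these 2 totals cannot be set against the background.

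**Figure D1:**
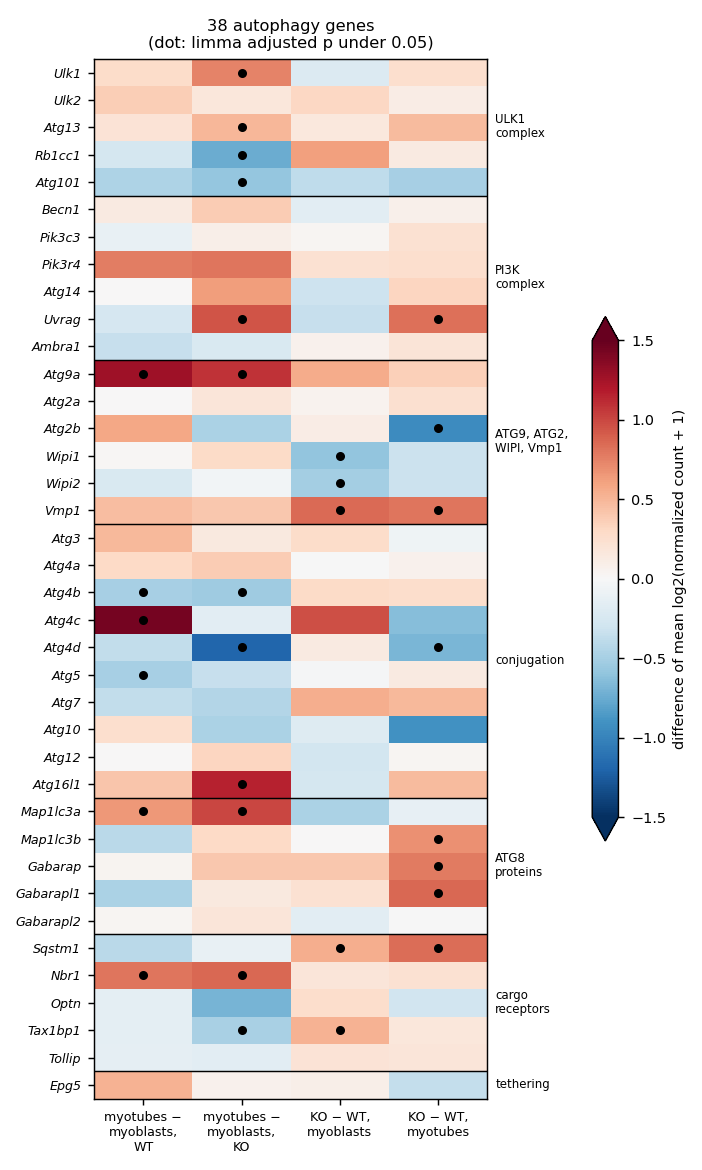
Difference of mean log2(normalized count + 1) for each of the 38 members (rows, grouped by role) in 4 comparisons (columns); red is higher in the group named first, blue lower, and a black dot marks a limma adjusted p under 0.05. The dots in the ATG8 rows of the last column mark Map1lc3b, Gabarap and Gabarapl1, higher in Fam134b KO than in WT myotubes.

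Between the genotypes, Sqstm1 and Vmp1 were the 2 members called at both stages, each higher in Fam134b KO. The share of all genes called at both stages was not computed. Sqstm1 encodes p62, the receptor that binds ubiquitinated cargo, gathers it into condensates and is itself degraded by autophagy. It lies at chr11:50199366-50210827, minus strand (GRCm38). Its normalized counts were 1924, 1778, 1630 and 1752 in WT myoblasts and 1277, 1527, 1255 and 1265 in WT myotubes. In Fam134b KO, Sqstm1 was at 2522, 2571, 2578 and 2586 in myoblasts and 1711, 2432, 2524 and 3011 in myotubes. All 8 KO libraries lay above the WT libraries of the same stage, with no overlap. The difference was 0.54 ± 0.16 (adjusted p = 0.027), 1.45-fold, between myoblasts and 0.84 ± 0.16 (adjusted p = 0.000796), 1.79-fold, between myotubes. In myotubes it was called under all 27 alternatives, which change 1 processing choice, leave out 1 library or leave out both shallow libraries. The Sqstm1 call between myoblasts did not hold without replicate 2, 3 or 4 of WT myoblasts or replicate 1, 3 or 4 of Fam134b KO myoblasts, where the difference was 0.50 to 0.54, and the adjusted p ran from 0.000353 to 0.0858 over the 27 alternatives. On differentiation Sqstm1 was lower in all 4 WT myotube libraries than in any WT myoblast library, with a difference of -0.41 ± 0.16 (adjusted p = 0.0715) that was not called, and in Fam134b KO the groups overlapped (-0.11 ± 0.16, adjusted p = 0.629).

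Vmp1, a membrane protein of the endoplasmic reticulum that scrambles phospholipids and is needed for autophagosome formation, lies at chr11:86583865-86683836, minus strand. It was counted at 608, 658, 553 and 536 in WT myoblasts and 1452, 623, 637 and 746 in WT myotubes. In Fam134b KO, Vmp1 was at 900, 1411, 951 and 1036 in myoblasts and 1912, 1305, 1314 and 1193 in myotubes. Every KO myoblast library exceeded every WT myoblast library, whereas in myotubes the groups overlapped through replicate 1 of WT myotubes, which stood at about the KO level. The difference was 0.85 ± 0.23 (adjusted p = 0.0119), 1.8-fold, between myoblasts, called under all 27 alternatives, and 0.80 ± 0.23 (adjusted p = 0.0146) between myotubes. Vmp1 missed the threshold between myotubes without replicate 3 of WT myotubes or replicate 1 of Fam134b KO myotubes or with only the 8 samples compared, where the difference was 0.65 to 0.80, and the adjusted p ran from 0.000346 to 0.0595 over the 27 alternatives. The gene for the microRNA precursor Mir21a lies within the Vmp1 transcript on the same strand, so reads from the precursor cannot be told apart from Vmp1 reads there.

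Since Sqstm1, Vmp1, Uvrag and Map1lc3b were each higher in Fam134b KO myotubes, the DNA upstream of their start sites is shown, except for another Vmp1 start farther inside the gene, which holds 1 TGACNNNGC match. Gabarap and Gabarapl1, called in the same direction, have 23 and 0 bases left after the cut described next and are not shown. The stretches are given as in the reference (RefSeq, GRCm38.p6, 5′ to 3′ on the strand of the gene, cut to the part of the 250 bases upstream that lies outside annotated exons). Capitals mark matches, on either strand, to motifs that were searched: CACGTG, the E-box at the centre of the CLEAR element of lysosomal and autophagy genes, CAGCTG, an E-box of myogenic factors, TGACNNNGC, the core of the antioxidant response element, and GTAAACA, a forkhead site.
Sqstm1 (chr11:50210828-50210889, minus strand): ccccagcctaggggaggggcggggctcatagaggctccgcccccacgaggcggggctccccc
Vmp1, upstream start (chr11:86683837-86683984, minus strand): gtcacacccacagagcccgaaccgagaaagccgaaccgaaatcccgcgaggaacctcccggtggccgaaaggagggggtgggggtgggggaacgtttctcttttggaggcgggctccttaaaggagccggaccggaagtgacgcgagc
Vmp1, second start (chr11:86683524-86683739, minus strand): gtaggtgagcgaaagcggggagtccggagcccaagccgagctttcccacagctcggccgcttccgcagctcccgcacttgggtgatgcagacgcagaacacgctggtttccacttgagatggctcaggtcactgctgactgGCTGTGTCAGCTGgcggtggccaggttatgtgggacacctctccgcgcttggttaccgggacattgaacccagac
Uvrag (chr7:99141145-99141394, minus strand): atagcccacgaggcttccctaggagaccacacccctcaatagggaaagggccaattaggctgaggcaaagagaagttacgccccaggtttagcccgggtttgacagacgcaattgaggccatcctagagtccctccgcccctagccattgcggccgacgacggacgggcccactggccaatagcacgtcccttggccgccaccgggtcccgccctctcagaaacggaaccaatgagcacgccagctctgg
Map1lc3b (chr8:121590188-121590360, plus strand): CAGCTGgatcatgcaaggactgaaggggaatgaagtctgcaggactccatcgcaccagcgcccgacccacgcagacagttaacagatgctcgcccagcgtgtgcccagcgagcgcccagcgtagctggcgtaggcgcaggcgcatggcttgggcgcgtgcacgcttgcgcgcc
Atg3 (chr16:45158707-45158784, plus strand): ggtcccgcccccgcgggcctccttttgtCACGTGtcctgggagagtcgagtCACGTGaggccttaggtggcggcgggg
The stretches of Sqstm1, Uvrag and the upstream start of Vmp1 hold no capitals (a TGACNNNGC match of the last lies farther upstream, in a stretch not shown), and in the second Vmp1 stretch TGACNNNGC and CAGCTG overlap. Atg3 is shown as the member whose stretch holds CACGTG more than once. Of 37 RefSeq promoters that matched 31 members, 8.11% held CACGTG in the 250 bases (Atg3, Atg5 and Atg7) beside 6.02% of all 32851 promoters, 10.8% held CAGCTG beside 13%, 16.2% held TGACNNNGC beside 10.2%, and 0 held GTAAACA beside 3.17%. Of the 6 member promoters with TGACNNNGC, the 3 of Vmp1 belong to 1 gene. A match is a description of the letters only.

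The ATG8 family supplied 3 of the 6 members called higher in Fam134b KO than in WT myotubes, a direction called for 9.74% of all genes. These small ubiquitin-like proteins are attached to phosphatidylethanolamine on the phagophore and bind the cargo receptors. Gabarap (chr11:69991143-69994951, plus strand) was at 730, 694, 764 and 767 in WT myoblasts and 603, 944, 760 and 774 in WT myotubes. In Fam134b KO, Gabarap was at 1005, 1083, 923 and 930 in myoblasts and 958, 1195, 1259 and 1998 in myotubes. All 4 KO libraries lay above the WT libraries at both stages. The difference was 0.78 ± 0.19 (adjusted p = 0.00445), 1.71-fold, between myotubes, called under all 27 alternatives, and 0.41 ± 0.19 (adjusted p = 0.151) between myoblasts, which was not called. Gabarapl1 (chr6:129533160-129542346, plus strand) was at 693, 657, 699 and 738 in WT myoblasts and 337, 677, 544 and 515 in WT myotubes. In Fam134b KO, Gabarapl1 was at 738, 858, 795 and 891 in myoblasts and 604, 858, 960 and 1385 in myotubes. In KO myotubes replicate 1 fell inside the WT range and the other 3 above it, with replicate 4 the highest. The difference between myotubes was 0.86 ± 0.21 (adjusted p = 0.00579). The call of Gabarapl1 between myotubes was lost without both shallow libraries, where the difference was 0.60, and the adjusted p ran from 0.000994 to 0.068 over the 27 alternatives.

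Map1lc3b encodes LC3B, whose lipid-bound form is the usual protein readout of autophagosomes, and lies at chr8:121590361-121598760, plus strand. Its normalized counts were 549, 671, 611 and 595 in WT myoblasts and 295, 574, 504 and 517 in WT myotubes. In Fam134b KO, Map1lc3b was at 641, 590, 584 and 603 in myoblasts and 410, 851, 783 and 1111 in myotubes. KO myoblasts lay within the range of WT myoblasts, replicate 1 was the lowest library of both myotube groups, and the other 3 KO myotube libraries lay above all WT myotube libraries. The difference between myotubes was 0.69 ± 0.23 (adjusted p = 0.0363), 1.62-fold, and between myoblasts -0.00 ± 0.23 (adjusted p = 0.998). The Map1lc3b call between myotubes did not hold without replicate 1, 3 or 4 of WT myotubes or replicate 2, 3 or 4 of Fam134b KO myotubes, with no filter on low values, with only the 8 samples compared, with sample weights or without both shallow libraries, where the difference was 0.30 to 0.75, and the adjusted p ran from 0.00134 to 0.41 over the 27 alternatives. The change on differentiation was -0.40 ± 0.23 (adjusted p = 0.232) in WT and 0.30 ± 0.23 (adjusted p = 0.35) in Fam134b KO, neither called, and the interaction of 0.70 ± 0.33 (adjusted p = 0.282) was not called.

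Map1lc3a, the gene of LC3A, rose on differentiation in both genotypes. It was at 1345, 1233, 1557 and 1560 in WT myoblasts and 1564, 2224, 2978 and 2373 in WT myotubes. In Fam134b KO, Map1lc3a was at 970, 1108, 915 and 1096 in myoblasts and 1778, 2240, 1936 and 2266 in myotubes. No library of the myotubes overlapped with the myoblasts of its genotype. The rise was 0.65 ± 0.18 (adjusted p = 0.0112), 1.57-fold, in WT and 1.00 ± 0.18 (adjusted p = 0.000176), 2-fold, in Fam134b KO. In KO it was called under all 27 alternatives. In WT the call rested on replicate 3, the highest myotube library. Map1lc3a missed the threshold in WT differentiation without replicate 3 of WT myotubes, where the difference was 0.51, and the adjusted p ran from 0.000125 to 0.0528 over the 27 alternatives. Between genotypes Map1lc3a was lower in each KO myoblast library than in any WT myoblast library, a difference of -0.47 ± 0.18 (adjusted p = 0.0766) that was not called, and in myotubes the difference was -0.12 ± 0.18 (adjusted p = 0.665). Gabarapl2 was not called in any comparison (differences of -0.16 to 0.18).

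**Figure D2:**
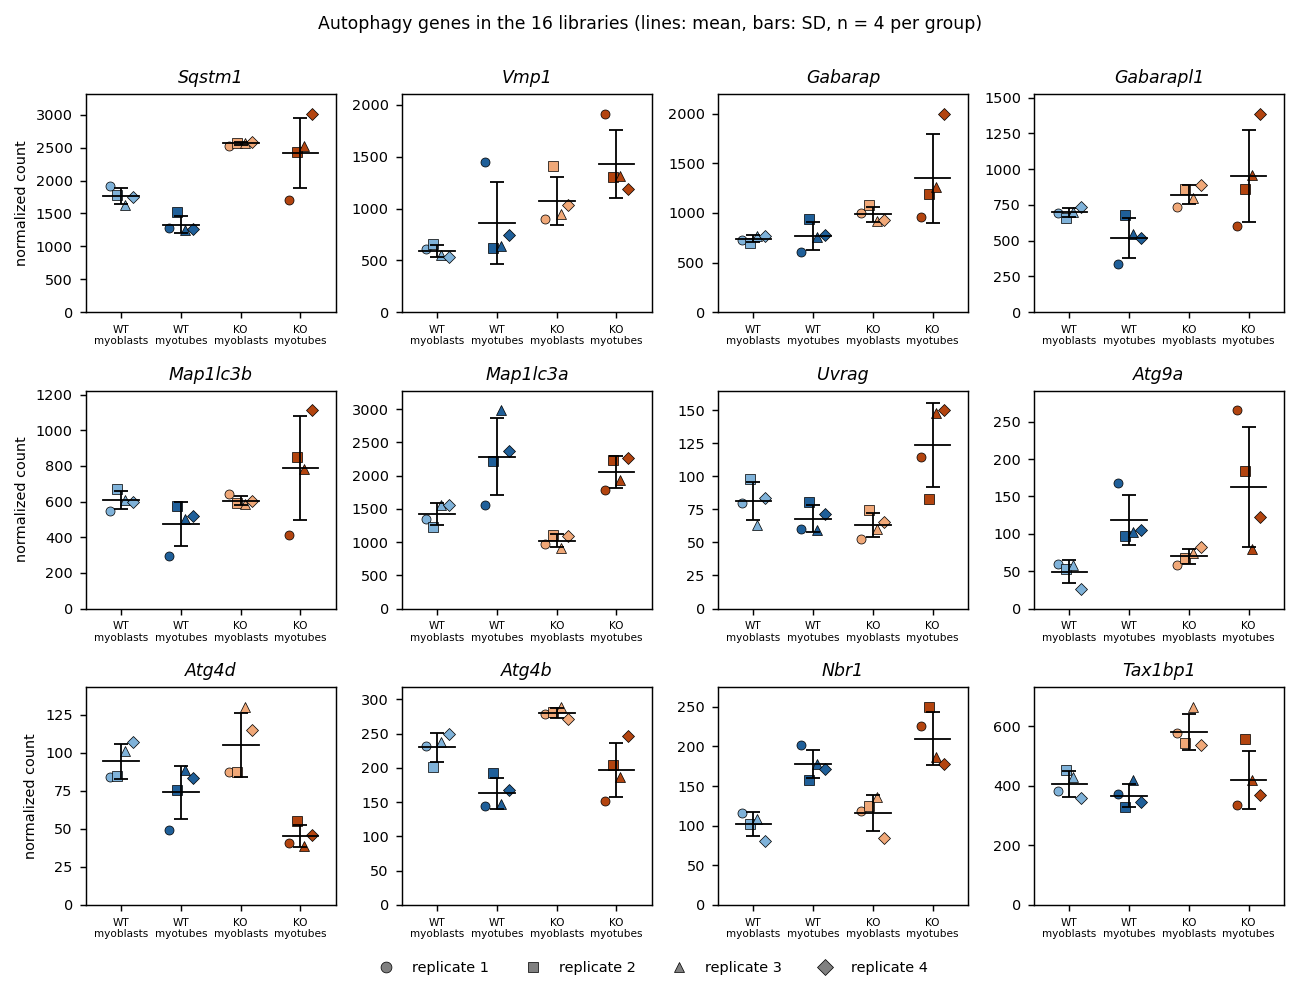
Normalized counts (linear axis from 0) of 12 members in the 16 libraries; each symbol is 1 library, its shape the replicate number, the horizontal line the group mean and the bar ± 1 SD (n = 4). Among myotubes, Sqstm1 lies at 1711 to 3011 in Fam134b KO against 1255 to 1527 in WT, and replicate 1 (circles) is the lowest or highest myotube library of both genotypes for Map1lc3b, Vmp1 and Atg9a.

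Among the remaining cargo receptors, Nbr1 rose on differentiation and Tax1bp1 differed by genotype in myoblasts. Nbr1, a ubiquitin-binding receptor of related build to p62, was at 116, 102, 108 and 81.1 in WT myoblasts and 202, 158, 178 and 172 in WT myotubes. In Fam134b KO, Nbr1 was at 119, 125, 136 and 84.3 in myoblasts and 226, 250, 187 and 178 in myotubes. The myotubes did not overlap with the myoblasts in either genotype. The rise was 0.80 ± 0.18 (adjusted p = 0.00323), 1.75-fold, in WT and 0.86 ± 0.18 (adjusted p = 0.00111), 1.81-fold, in Fam134b KO, each called under all 27 alternatives, and no difference between genotypes was called (0.18 ± 0.18, adjusted p = 0.593, in myoblasts and 0.23 ± 0.18, adjusted p = 0.395, in myotubes). Tax1bp1, a receptor for ubiquitinated cargo and aggregates, was at 383, 452, 430 and 358 in WT myoblasts and 373, 330, 420 and 345 in WT myotubes. In Fam134b KO, Tax1bp1 was at 579, 543, 665 and 537 in myoblasts and 334, 556, 419 and 370 in myotubes. KO myoblasts lay above all WT libraries, and KO myotubes overlapped with them through replicate 2 only. It was higher in KO than in WT myoblasts by 0.52 ± 0.16 (adjusted p = 0.0312) and lower in KO myotubes than in KO myoblasts, at -0.49 ± 0.16 (adjusted p = 0.0235). The call of Tax1bp1 between myoblasts was lost without replicate 1, 3 or 4 of WT myoblasts or replicate 1 or 3 of Fam134b KO myoblasts, where the difference was 0.45 to 0.55, and the adjusted p ran from 0.000547 to 0.11 over the 27 alternatives. The Tax1bp1 call in Fam134b KO differentiation did not hold without replicate 1 or 3 of Fam134b KO myoblasts or replicate 1 or 4 of Fam134b KO myotubes or with only the 8 samples compared, where the difference was -0.49 to -0.39, and the adjusted p ran from 0.00362 to 0.0849 over the 27 alternatives. Optn and Tollip, receptors for mitochondria, bacteria and aggregates, had differences of -0.70 to 0.26 and -0.16 to 0.20 with no call, and Optn had only 5 to 39 reads per library, which limits what could be detected.

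Of the 6 members of the Beclin 1 lipid kinase complex, Uvrag was the only one called in any comparison. Uvrag binds Beclin 1 in the form of the complex that acts on endosomes and on autophagosome maturation, and lies at chr7:98885021-99141141, minus strand. It was at 80.3, 98.4, 63 and 83.8 in WT myoblasts and 60.4, 81, 59.5 and 71.3 in WT myotubes. In Fam134b KO, Uvrag was at 52.5, 74.7, 59.9 and 65.9 in myoblasts and 115, 83.2, 148 and 150 in myotubes. The 4 KO myotube libraries lay above the libraries of KO myoblasts and of WT myotubes, while WT myotubes and WT myoblasts overlapped. The difference was 0.94 ± 0.22 (adjusted p = 0.00217), 1.91-fold, on differentiation in Fam134b KO and 0.83 ± 0.22 (adjusted p = 0.00786), 1.78-fold, between myotubes, both called under all 27 alternatives, whereas in WT differentiation it was -0.25 ± 0.22 (adjusted p = 0.435) and between myoblasts -0.35 ± 0.22 (adjusted p = 0.314). The interaction was 1.18 ± 0.30 (adjusted p = 0.033). Uvrag missed the threshold for the interaction without replicate 1, 2 or 4 of WT myoblasts or replicate 1, 3 or 4 of WT myotubes or replicate 1, 3 or 4 of Fam134b KO myoblasts or replicate 3 or 4 of Fam134b KO myotubes, where the difference was 1.08 to 1.21, and the adjusted p ran from 0.00375 to 0.084 over the 26 alternatives.

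Becn1, which encodes Beclin 1, the scaffold of this complex, was at 199, 229, 193 and 197 in WT myoblasts and 200, 231, 226 and 246 in WT myotubes. In Fam134b KO, Becn1 was at 160, 219, 167 and 189 in myoblasts and 221, 174, 288 and 288 in myotubes. The groups overlapped in each comparison. Its differences ran from -0.16 ± 0.17 (adjusted p = 0.615) between myoblasts to 0.38 ± 0.17 (adjusted p = 0.0964) on differentiation in Fam134b KO. Pik3r4, the regulatory subunit, had differences on differentiation of 0.77 ± 0.33 (adjusted p = 0.101) in WT and 0.80 ± 0.33 (adjusted p = 0.0712) in Fam134b KO, with overlapping groups and no call. Pik3c3, the catalytic subunit, Atg14, which sends the complex to the phagophore, and Ambra1, a regulator, ranged from -0.35 to 0.63 over the 4 comparisons, with no call.

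Of the 5 members of the ULK1 complex, 4 were called in Fam134b KO differentiation, 2 higher and 2 lower in myotubes, beside 33.4% of all genes (17.3% higher and 16.1% lower), and each of these 4 calls was lost under several alternatives. Ulk1, the kinase that starts autophagosome formation, was at 52.6, 50.2, 52 and 47.2 in WT myoblasts and 74.2, 51.3, 54.8 and 69.4 in WT myotubes. In Fam134b KO, Ulk1 was at 32.4, 58.1, 50.3 and 38.4 in myoblasts and 50.3, 56.9, 106 and 95.9 in myotubes. KO myotube replicates 3 and 4 lay above all KO myoblast libraries and replicates 1 and 2 within their range. The change in Fam134b KO was 0.74 ± 0.25 (adjusted p = 0.0291), 1.67-fold, and in WT 0.28 ± 0.25 (adjusted p = 0.448). The call of Ulk1 in Fam134b KO differentiation was lost without replicate 1 or 4 of Fam134b KO myoblasts or replicate 3 or 4 of Fam134b KO myotubes, with only the 8 samples compared or without both shallow libraries, where the difference was 0.56 to 0.74, and the adjusted p ran from 0.00423 to 0.108 over the 27 alternatives. Atg13, the subunit regulated by mTORC1, was higher in KO myotubes by 0.50 ± 0.17 (adjusted p = 0.03), with no overlap. The Atg13 call in Fam134b KO differentiation did not hold without replicate 1 or 2 of Fam134b KO myoblasts or replicate 2 or 4 of Fam134b KO myotubes, after quantile normalization, with only the 8 samples compared, with sample weights or without both shallow libraries, where the difference was 0.33 to 0.50, and the adjusted p ran from 0.0159 to 0.223 over the 27 alternatives. Rb1cc1, the scaffold FIP200, was lower in KO myotubes, at -0.74 ± 0.26 (adjusted p = 0.0327), as was Atg101, which stabilises Atg13, at -0.58 ± 0.20 (adjusted p = 0.0286). Rb1cc1 missed the threshold in Fam134b KO differentiation without replicate 1 or 3 of Fam134b KO myoblasts or replicate 1 or 4 of Fam134b KO myotubes or with only the 8 samples compared, where the difference was -0.74 to -0.48, and the adjusted p ran from 0.00585 to 0.141 over the 27 alternatives. The call of Atg101 in Fam134b KO differentiation was lost without replicate 1, 2 or 4 of Fam134b KO myoblasts or replicate 1 or 2 of Fam134b KO myotubes or with only the 8 samples compared, where the difference was -0.59 to -0.42, and the adjusted p ran from 0.00497 to 0.114 over the 27 alternatives. In no interaction of these 5 genes was the difference between genotypes called (-0.48 to 0.45), and Ulk2, the paralog of Ulk1, had differences of 0.11 to 0.37 in the comparisons of groups, none called.

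Among the genes that supply membrane to the phagophore, Atg9a rose on differentiation in both genotypes. Atg9a encodes the scramblase of the vesicles that seed the phagophore and lies at chr1:75180860-75192196, minus strand. It was at 59.1, 53, 58 and 26.7 in WT myoblasts and 168, 97.2, 102 and 105 in WT myotubes. In Fam134b KO, Atg9a was at 57.7, 67.2, 73.7 and 81.8 in myoblasts and 265, 184, 80.1 and 122 in myotubes. Each WT myotube library lay above the WT myoblasts, replicate 1 the highest, and in Fam134b KO replicate 3 of the myotubes fell within the range of the myoblasts. The rise was 1.27 ± 0.31 (adjusted p = 0.00517), 2.42-fold, in WT, called under all 27 alternatives, and 1.08 ± 0.31 (adjusted p = 0.0105), 2.11-fold, in Fam134b KO. The Atg9a call in Fam134b KO differentiation did not hold without replicate 1 of Fam134b KO myotubes, where the difference was 0.80, and the adjusted p ran from 0.00137 to 0.0505 over the 27 alternatives. The annotated gene Gm29253 overlaps the exons of Atg9a on the same strand.

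Wipi1 and Wipi2, which bind the lipid made by the Beclin 1 complex and recruit the conjugation machinery, were both lower in Fam134b KO than in WT myoblasts. Wipi1 was at 508, 477, 588 and 573 in WT myoblasts and 432, 553, 722 and 496 in WT myotubes. In Fam134b KO, Wipi1 was at 396, 266, 393 and 380 in myoblasts and 318, 470, 436 and 542 in myotubes. KO myoblasts had the lowest group mean, and their replicate 2 was the lowest of the 16 libraries. Wipi2 was at 328, 329, 357 and 372 in WT myoblasts and 231, 336, 309 and 310 in WT myotubes. In Fam134b KO, Wipi2 was at 262, 217, 226 and 269 in myoblasts and 233, 250, 200 and 264 in myotubes. For both, the 4 KO myoblast libraries lay below the 4 WT libraries, and in myotubes the genotypes overlapped. The difference between myoblasts was -0.59 ± 0.19 (adjusted p = 0.0343) for Wipi1 and -0.51 ± 0.15 (adjusted p = 0.0245) for Wipi2. Wipi1 missed the threshold between myoblasts without replicate 1, 3 or 4 of WT myoblasts or replicate 2 or 4 of Fam134b KO myoblasts or after quantile normalization, where the difference was -0.63 to -0.46, and the adjusted p ran from 0.00251 to 0.119 over the 27 alternatives. The call of Wipi2 between myoblasts was lost without replicate 3 or 4 of WT myoblasts or replicate 2 or 3 of Fam134b KO myoblasts, where the difference was -0.50 to -0.46, and the adjusted p ran from 0.00139 to 0.075 over the 27 alternatives. Atg2b, a lipid transfer protein, was at 37.8, 28.9, 32 and 27.6 in WT myoblasts and 50.1, 34.2, 51.1 and 57.5 in WT myotubes. In Fam134b KO, Atg2b was at 35, 37.4, 38.2 and 26.7 in myoblasts and 46.5, 11.7, 34.2 and 18 in myotubes. KO myotube replicates 2 and 4, the shallow libraries, were the lowest of all 16, with replicate 2 holding 8 reads, and the other 2 overlapped with WT. The difference of KO from WT myotubes was -0.94 ± 0.33 (adjusted p = 0.0415). The Atg2b call between myotubes did not hold without replicate 3 of WT myoblasts or replicate 1, 3 or 4 of WT myotubes or replicate 1 of Fam134b KO myoblasts or replicate 2 or 4 of Fam134b KO myotubes, with no filter on low values, after quantile normalization, with only the 8 samples compared, with sample weights, with limma voom on recovered reads or without both shallow libraries, where the difference was -0.94 to -0.24, and the adjusted p ran from 0.00699 to 0.57 over the 26 alternatives. Its paralog Atg2a was not called in any comparison (differences of at most 0.24).

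Of the 10 members of the conjugation system, 3 were called in WT and 3 in Fam134b KO differentiation, beside 23% and 33.4% of all genes. Only the calls of Atg4d and Atg16l1, both in Fam134b KO differentiation, held under all 27 alternatives. The Atg4 proteases cut the ATG8 proteins before attachment and release them afterwards. Atg4d (chr9:21265293-21277772, plus strand) was at 84, 84.9, 101 and 107 in WT myoblasts and 49.2, 75.6, 88.3 and 83.2 in WT myotubes. In Fam134b KO, Atg4d was at 87.5, 87.2, 130 and 115 in myoblasts and 40.7, 55.4, 38.7 and 46 in myotubes. The 4 KO myotube libraries were below all KO myoblast libraries, and only replicate 1 of WT myotubes reached their range. The difference was -1.19 ± 0.22 (adjusted p = 0.000232), 2.28-fold, on differentiation in Fam134b KO, called under all 27 alternatives, and -0.68 ± 0.22 (adjusted p = 0.0265) between myotubes. Atg4d missed the threshold between myotubes without replicate 2, 3 or 4 of WT myotubes or replicate 1 or 3 of Fam134b KO myotubes or with only the 8 samples compared, where the difference was -0.68 to -0.59, and the adjusted p ran from 0.00577 to 0.115 over the 27 alternatives. In WT differentiation it was -0.37 ± 0.22 (adjusted p = 0.232), and the interaction of -0.82 ± 0.31 (adjusted p = 0.153) was not called.

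Atg4b, the protease that acts most broadly on the ATG8 proteins, was at 232, 201, 238 and 250 in WT myoblasts and 145, 193, 147 and 168 in WT myotubes. In Fam134b KO, Atg4b was at 279, 281, 289 and 272 in myoblasts and 152, 204, 186 and 246 in myotubes. It was lower in myotubes than in myoblasts of both genotypes with no overlap. The difference was -0.50 ± 0.16 (adjusted p = 0.0309) in WT and -0.53 ± 0.16 (adjusted p = 0.0157) in Fam134b KO. The call of Atg4b in WT differentiation was lost without replicate 1, 3 or 4 of WT myoblasts or replicate 1, 3 or 4 of WT myotubes, where the difference was -0.51 to -0.44, and the adjusted p ran from 0.0013 to 0.0919 over the 27 alternatives. The Atg4b call in Fam134b KO differentiation did not hold without replicate 1 of Fam134b KO myotubes, where the difference was -0.41, and the adjusted p ran from 0.00391 to 0.0627 over the 27 alternatives. Atg4c was at 5.54, 3.86, 7.01 and 13.4 in WT myoblasts and 28.5, 9, 25.1 and 24.8 in WT myotubes. In Fam134b KO, Atg4c was at 14.9, 6.64, 21.7 and 18.4 in myoblasts and 7.75, 30.6, 12.6 and 7.99 in myotubes. Only replicate 2 of WT myotubes fell into the range of WT myoblasts. With 4 to 33 reads per library, its rise in WT of 1.44 ± 0.48 (adjusted p = 0.0359) was imprecise. Atg4c missed the threshold in WT differentiation without replicate 1, 2 or 3 of WT myoblasts or replicate 1, 3 or 4 of WT myotubes or with no filter on low values, where the difference was 1.21 to 1.45, and the adjusted p ran from 0.000654 to 0.113 over the 26 alternatives. In Fam134b KO the change was -0.16 ± 0.48 (adjusted p = 0.824), and the interaction of -1.60 ± 0.68 (adjusted p = 0.223) was not called.

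Atg5, which joins Atg12 in the complex that attaches ATG8 proteins to lipid, was at 153, 193, 187 and 233 in WT myoblasts and 108, 117, 169 and 149 in WT myotubes. In Fam134b KO, Atg5 was at 187, 183, 189 and 189 in myoblasts and 122, 150, 169 and 150 in myotubes. WT myotubes overlapped with WT myoblasts through replicate 3. The difference was -0.50 ± 0.18 (adjusted p = 0.0433) in WT, called lower in myotubes, and -0.35 ± 0.18 (adjusted p = 0.133) in Fam134b KO. The call of Atg5 in WT differentiation was lost without replicate 2, 3 or 4 of WT myoblasts or replicate 1, 2 or 4 of WT myotubes or replicate 1, 3 or 4 of Fam134b KO myoblasts, with no filter on low values or with only the 8 samples compared, where the difference was -0.55 to -0.40, and the adjusted p ran from 0.0246 to 0.156 over the 27 alternatives. Atg16l1, which anchors that complex to the phagophore, was at 57.2, 75.2, 55 and 48.1 in WT myoblasts and 106, 65.7, 69.7 and 77.3 in WT myotubes. In Fam134b KO, Atg16l1 was at 47.2, 71.4, 35.6 and 45.9 in myoblasts and 194, 65.7, 110 and 102 in myotubes. Replicate 2 of KO myotubes fell within the range of KO myoblasts and the other 3 above it, replicate 1 the highest. The rise in Fam134b KO was 1.16 ± 0.28 (adjusted p = 0.00314), 2.23-fold, called under all 27 alternatives, and in WT the difference was 0.42 ± 0.28 (adjusted p = 0.292).

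Atg7, the E1-like enzyme that activates both Atg12 and the ATG8 proteins, was at 179, 153, 212 and 190 in WT myoblasts and 87.2, 229, 159 and 123 in WT myotubes. In Fam134b KO, Atg7 was at 269, 233, 304 and 267 in myoblasts and 199, 244, 157 and 198 in myotubes. Each KO myoblast library lay above the WT myoblast libraries, and replicate 1 of WT myotubes was the lowest of all 16. The difference was 0.55 ± 0.22 (adjusted p = 0.107) between myoblasts and 0.49 ± 0.22 (adjusted p = 0.123) between myotubes, neither called, and -0.37 ± 0.22 (adjusted p = 0.244) and -0.44 ± 0.22 (adjusted p = 0.14) on differentiation in WT and Fam134b KO. Atg3, the E2-like enzyme for the ATG8 proteins, Atg4a, another of the proteases, Atg10 and Atg12, the ubiquitin-like partner of Atg5, were not called in any comparison. The largest difference among them was that of Atg10, the E2-like enzyme for Atg12, between myotubes (-0.91 ± 0.38, adjusted p = 0.0874), with 4 to 39 reads per library. Epg5, which tethers autophagosomes to late endosomes and lysosomes, had 2 to 47 reads per library and differences of -0.36 to 0.52, none called.

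The differentiation changes were compared between the genotypes, which share no samples. Of the 38 members, 30 had the same sign in both genotypes (78.9%, beside 72.5% of all genes tested). In both genotypes 4 were called: Atg9a, Map1lc3a and Nbr1 higher and Atg4b lower in myotubes. The share of all genes called in both was not computed. Over the 38 members the Pearson correlation of both changes was 0.501, beside 0.735 over the 10767 genes, as a description across genes that are not independent. Of the 38 interactions only that of Uvrag passed, and Uvrag is among the 8 members called in Fam134b KO alone. The others of these 8 and the 2 called in WT alone, Atg4c and Atg5, are not shown to differ between genotypes.

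**Figure D3:**
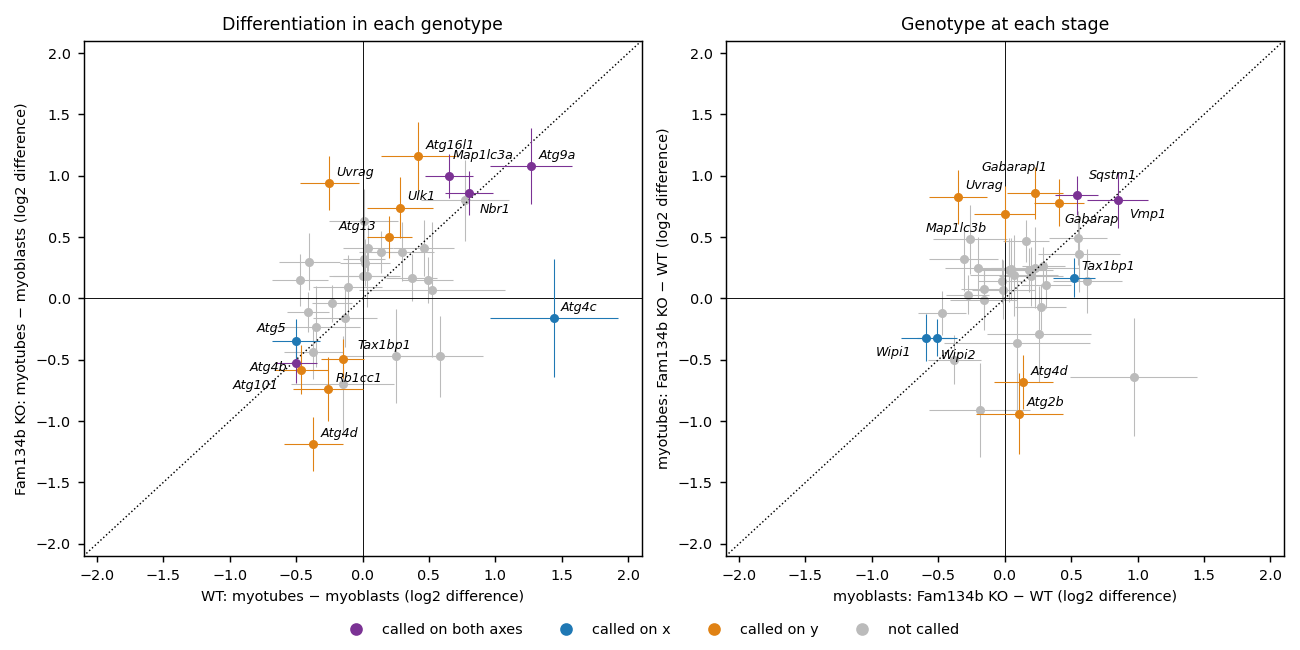
Each point is 1 of the 38 members with its SE; the left panel sets the log2 difference on differentiation in Fam134b KO against that in WT, the right panel the log2 difference of Fam134b KO minus WT in myotubes against that in myoblasts, and the dotted line marks equal values. Atg9a, Map1lc3a, Nbr1 and Atg4b are called on both axes at left, Sqstm1 and Vmp1 at right, and Uvrag lies far above the line in both panels.

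Several markers moved with genotype beside these members. Of the 8 myotube markers, 7 were called lower in Fam134b KO than in WT myoblasts and 5 in myotubes. The 3 proliferation markers were all called lower in Fam134b KO than in WT myotubes, with sums of 643 to 934 against 1478 to 2344, and all 3 were called lower in myotubes than in myoblasts of Fam134b KO. In WT the differences on differentiation were also negative, at -1.38 for Ccnb1, which was called, and -0.60 (adjusted p = 0.0573) for Mki67 and -0.49 (adjusted p = 0.0672) for Top2a. The interaction was called for Mki67 (adjusted p = 0.00547) and not for Top2a (adjusted p = 0.0649) or Ccnb1 (adjusted p = 0.399). Replicate 1 stood apart in both myotube groups for several members, and the deviations of these 2 libraries from their group means correlated at 0.369 over all genes, the highest of the 24 pairs of same-numbered libraries, and at 0.321 over the 38 members, where the highest pair, replicates 4 of WT and KO myoblasts, was at 0.383. The part of these measures in the members' differences was not tested.

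**Figure D4:**
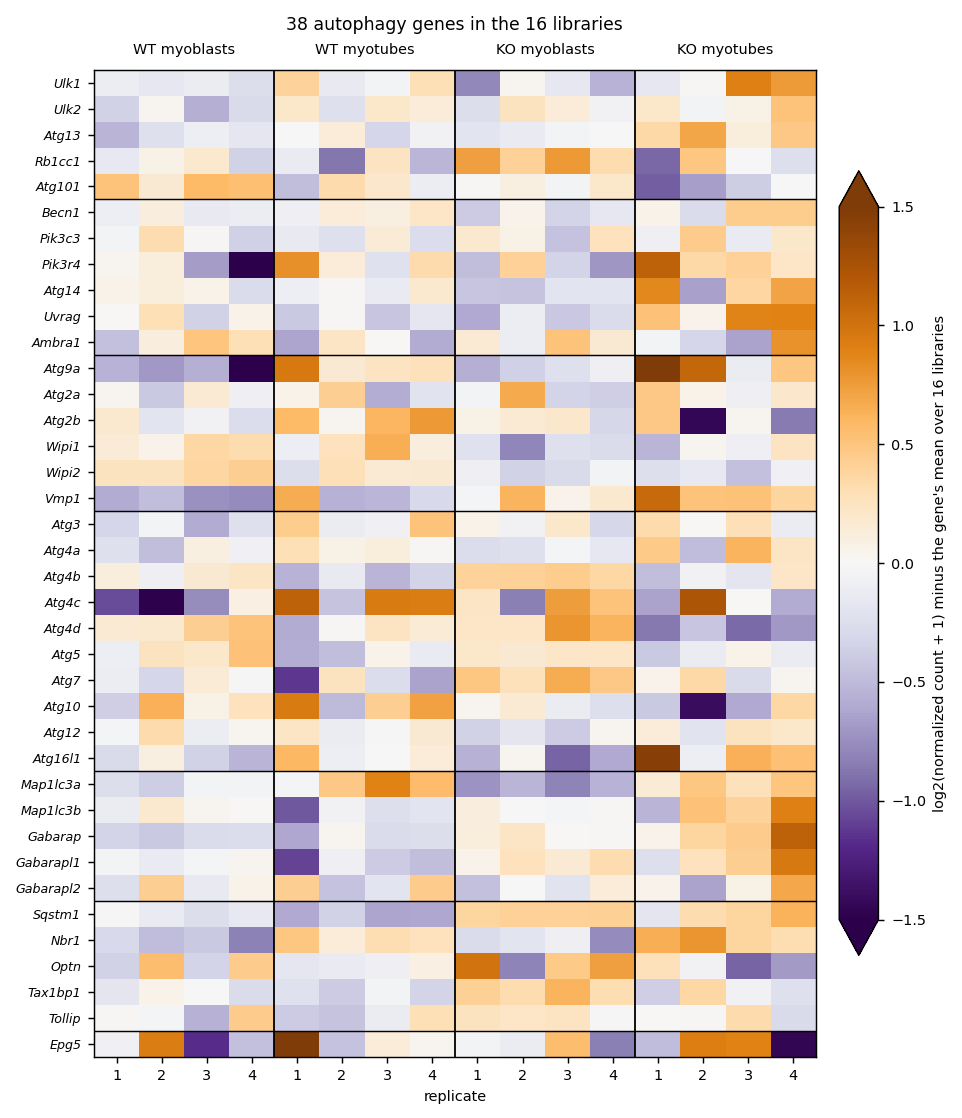
log2(normalized count + 1) of the 38 members (rows, grouped by role) in the 16 libraries (columns), with the mean of each gene over the libraries subtracted; orange is above and purple below that mean. Sqstm1 is orange in all 4 Fam134b KO myoblast libraries, Atg9a in all myotubes except replicate 3 of Fam134b KO, and the columns of replicates 1 of both myotube groups show purple Map1lc3b and orange Atg16l1.

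The other 53 genes of the pathway, from signalling to lysosomal fusion, were tested in the same fit. In WT differentiation 8 of 53 were called, all higher (15.1% beside 23% of all genes), and in Fam134b KO differentiation 14, of which 11 were higher (26.4% beside 33.4%). The receptors Bnip3, for mitochondria, and Calcoco1, for endoplasmic reticulum, rose in both genotypes, Bnip3 4.3-fold in WT (adjusted p = 2.99e-06) and 3.42-fold in Fam134b KO (adjusted p = 1.31e-05). Calcoco1 rose by 1.22 ± 0.16 (adjusted p = 1.42e-05) and 1.41 ± 0.16 (adjusted p = 1.03e-06). The 3 genes called lower in Fam134b KO differentiation were Snap29 and Vamp8, SNARE proteins of autophagosome fusion, and Vps33a, a tethering subunit, at -0.65, -0.75 and -0.60. Between genotypes 6 were called in myoblasts (11.3% beside 15.8%) and 8 in myotubes (15.1% beside 23.4%), with 3 and 4 of them higher in Fam134b KO. Sh3glb1, a membrane-bending partner of Uvrag and Beclin 1, was lower in Fam134b KO at both stages, at -1.25 ± 0.17 (adjusted p = 1.48e-05) in myoblasts and -0.88 ± 0.17 (adjusted p = 0.000861) in myotubes. Mitf, a transcription factor of the family that binds CACGTG, was higher by 0.79 ± 0.26 (adjusted p = 0.0439) and 1.01 ± 0.26 (adjusted p = 0.0079). Tfeb and Tfe3 of the same family were not called (0.38 and 0.12 in myoblasts, -0.07 and 0.34 in myotubes). Foxo1, a forkhead factor, was lower, at -0.88 ± 0.21 (adjusted p = 0.00584) and -0.81 ± 0.21 (adjusted p = 0.00903). Foxo3, another forkhead factor, had differences in the other direction (0.41 in myoblasts and 0.49 in myotubes), neither called. Among the interactions 1 of 53 passed, that of Stbd1, a receptor for glycogen (-1.66 ± 0.38, adjusted p = 0.0149).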

How the data were processed

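Total RNA of C2C12 cells and myotubes was made into mRNA libraries that a service provider sequenced as single-end reads. Per the methods and the submitters' processing notes, reads were trimmed, aligned with STAR 2.6.0a to mm10 and counted on genes with HTSeq. The authors deposited 1 table of log2 values, log2(normalized count + 1), for 31053 rows. Before the log2 step 100% of the values above 0 are whole multiples, within 0.01, of a step per library, which gave the reads. The design had assumed linear values, and with log2 values no further log step was taken. Of the rows, 74 have no symbol. A gene entered the test if 4 or more of the 16 libraries reached a normalized count of 10. The test was limma 3.58.1 in R 4.3.3 (lmFit, contrasts.fit, eBayes with a trend, 4 group means, no covariate), with Benjamini-Hochberg adjustment. The procedure was tested on simulated data. The members, other lists and rules were chosen with earlier results of these data known. Values in every library are given for Map1lc3b, Sqstm1, Ulk1, Becn1 and Atg7, for the 6 called members with the largest difference in each of the 4 comparisons of groups, and for members called in the interaction. As alternatives, the pseudocount was set to 0.5 or 5, the filter was dropped or raised to 50, the libraries were scaled to equal totals or quantile normalized, and the fit was repeated with the replicate block, only the 8 samples compared, sample weights, limma voom on the recovered reads and each library left out; a fit without the 2 shallow libraries was added after seeing the data. Coordinates and overlaps are from GENCODE M21 (GRCm38). Reads carry no molecular identifiers in the sources used here, and depth limits the precision of members with few reads.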

Additional observations from a re-analysis of the deposited data

Results flagged for a closer look

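In 8 of the 152 groups of 4 libraries (38 members in 4 groups), 1 library stood far from the other 3 on the log2 scale by Dixon's 95% limit, which chance passes in about 1 group in 20. Replicate 2 of WT myotubes accounted for 3 of them, with Ulk2 at 99 (others 128 to 134), Atg4c at 9 (others 24.8 to 28.5) and Sqstm1 at 1527 (others 1255 to 1277). In replicate 4 of WT myoblasts Atg14 was at 40.1 (others 50.7 to 53) and Atg9a at 26.7 (others 53 to 59.1). Atg9a in replicate 1 of WT myotubes was at 168 (others 97.2 to 105). In Fam134b KO myoblasts, Wipi1 in replicate 2 was at 266 (others 380 to 396) and Tollip in replicate 4 at 48.4 (others 57.3 to 58.6). The change of Uvrag on differentiation was larger in Fam134b KO than in WT by 1.18 on the log2 scale by the interaction test, with an adjusted p over its 26 alternatives of 0.00375 to 0.084.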

How the results depend on the processing

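No result reversed. Of 861 repeats of the 32 calls of members, 739 kept the call and 122 lost it with the same direction, and 11 calls held under each of their alternatives. Some repeats are weak checks. In a comparison of 2 groups, leaving out a library of another group cannot change the difference, only its SE and adjusted p. With sample weights, 15 of 38 members were called in WT differentiation, 12 between myoblasts and 4 in the interaction. Of all genes, 43.5%, 35% and 11.3% were called in these fits. With only the 8 samples compared, 7 were called in Fam134b KO differentiation, 10 between myoblasts and 4 between myotubes, beside 25.6%, 24.7% and 14.5% of all genes. Leaving out 1 library gave 3 to 10 calls in WT differentiation and 7 to 13 in Fam134b KO differentiation. Between myoblasts it gave 1 to 6, between myotubes 4 to 10 and in the interaction 0 to 2. The share of all genes called moved too, over 14.5% to 27.4%, 26.3% to 34.6%, 12.4% to 18%, 16.9% to 24.7% and 2.15% to 4.84%. Without both shallow libraries the counts were 8, 12, 5, 7 and 1, beside 30.5%, 31.7%, 20.7%, 20.5% and 3.68% of all genes. Of these members, 6, 10, 5, 5 and 1 were among those called with all libraries. With the replicate block the counts were 6, 13, 5, 8 and 1, beside 23.2%, 33.7%, 15.6%, 23.3% and 3.32% of all genes. The block ended none of the 32 calls. The labels do not say whether replicate numbers pair the samples. Deviations of same-numbered libraries correlated at -0.223 to 0.369 (mean 0.033), which cannot settle it. The cause of the changes in these counts was not tested, and the fits that leave libraries out also hold fewer samples. Count tests with edgeR or DESeq2 were not run, and limma voom on the recovered reads was the alternative based on reads. At least 1 library held under 20 reads for 8 members (Pik3c3, Ambra1, Atg2b, Atg4a, Atg4c, Atg10, Optn and Epg5), which limits what could be detected for them.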
